A study of Arabidopsis thaliana with 22 samples.

Results

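Gene expression was compared between 24 h and 4 h after treatment in green tissues of *Arabidopsis thaliana* seedlings that carried pGL3::GL3-GR. All arrays of this line were taken, which gave 10 of the 22 arrays in the series, with 4 arrays of 24 h (2 DEX and 2 Mock) and 6 arrays of 4 h (3 DEX and 3 Mock). GL3 is a bHLH factor that starts leaf hair (trichome) formation. In GL3-GR it is joined to the hormone-binding domain of the glucocorticoid receptor (GR), so that it acts only once dexamethasone (DEX) is present, and Mock seedlings received ethanol, the solvent of DEX. Every seedling of this line was a *gl3 egl3* mutant, lacking GL3 and its relative EGL3, and the fusion was driven by the promoter of *GL3* itself, so that both times shared the mutations and the transgene. The other 12 arrays came from *gl1* pGL1::GL1-GR seedlings at the same times and treatments (6 of 24 h and 6 of 4 h), in which the fused factor is the MYB protein GL1. Each RNA came from many seedlings pooled, and seedlings were moved to fresh medium at the start of treatment. The study's methods describe independent biological material for each sample, whereas the labels give only a number, so p-values measure the spread between these samples.

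The comparison joined several things that change between the times: the time since transfer, the time under DEX or ethanol, the age of the seedlings and, possibly, the time of day. The clock time of collection is not given in the sources used here. The plant circadian clock is a network of transcription factors that repress each other in turn through the day, and it sets the daily rhythm of genes for light harvesting, chlorophyll synthesis and starch use. Light signals reach many of the same genes through bZIP factors such as HY5 and HYH, while auxin switches on short-lived genes of the Aux/IAA and GH3 families. Trichome number is held down by small MYB proteins with a single repeat (CPC, TRY, ETC1), which compete with GL1 for binding to GL3.

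The arrays of 24 h resembled one another far more than those of 4 h did. Pearson's r over probe sets was 0.997 to 0.998 between arrays of 24 h (6 pairs), 0.935 to 0.975 between arrays of 4 h (15 pairs) and 0.886 to 0.94 between times (24 pairs). The median SD of a probe set was 0.113 log2 units at 24 h and 0.443 at 4 h. In the deposited values, array medians were 4.67 to 4.717 at 24 h and 3.616 to 3.72 at 4 h, and the lowest values on the arrays also formed a separate set at each time. The arrays were therefore quantile-normalized together before the test, and all levels below are on that log2 scale, where the lowest value was 2.18 and values within 1 of it are called near the floor. Of the 6 arrays of 4 h, both replicate 1 arrays stood apart, with a residual SD about the group mean of 0.615 (DEX) and 0.7 (Mock), and were the closest of the 4 h arrays to those of 24 h.

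Control probe sets, which are not normalized with the genes here and are given as deposited log2 values, also separated the times. The 5S rRNA probe set lay at 2.133 to 2.135 on the 24 h arrays and 9.414 to 11.7 on the 4 h arrays, and the 25S rRNA probe set at 7.433 to 8.341 on the 24 h arrays and 4.3 to 4.625 on the 4 h arrays. The gap between the 3′ and 5′ actin probe sets, which widens when RNA or its copies are short, was 2.347 to 2.51 at 24 h and 3.79 to 5.286 at 4 h. The added *cre* control spike was at 14.76 to 14.96 at 24 h and 14.6 to 14.96 at 4 h. In GL1-GR seedlings the actin gap was 2.22 to 2.536 at 24 h and 2.825 to 3.143 at 4 h. These measures did not overlap between the times in GL3-GR seedlings, except for the spike. The time of collection and the quality of the RNA therefore cannot be told apart in any result given here. The same holds for any separate normalization of each time, which the sources do not state.

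**Figure D1:**
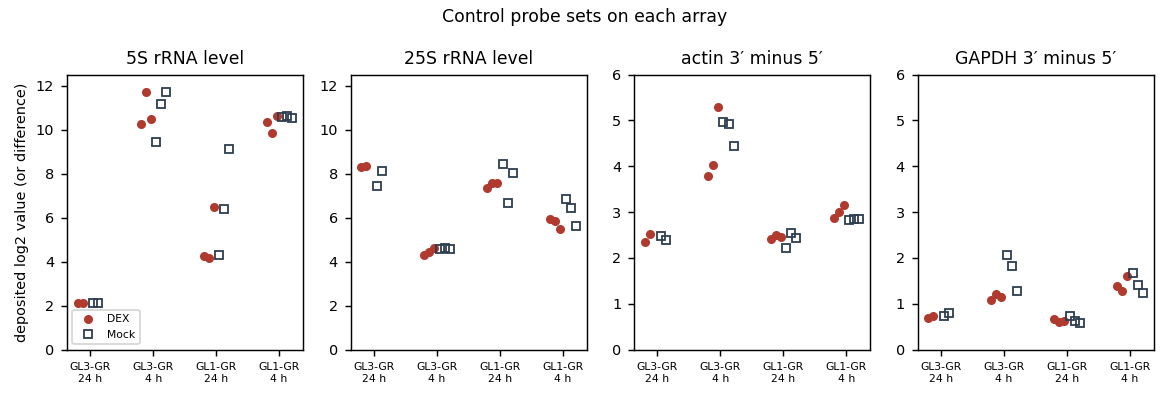
Control measures (5S and 25S rRNA levels, and 3′ minus 5′ differences of actin and GAPDH) on each array as deposited log2 values (y axis), with GL3-GR arrays of 24 h and 4 h beside GL1-GR arrays of 24 h and 4 h (x axis). The 5S rRNA probe set is near 2.13 on all 4 GL3-GR arrays of 24 h and above 9.4 on all 6 of 4 h, and the actin 3′ minus 5′ gap is larger on every 4 h array than on any 24 h array of the same line.

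Most of the probe sets tested differed between the times. Of 14693 probe sets above the filter, 8416 passed the test (57.3%), with 4519 higher (30.8%) and 3897 lower (26.5%) at 24 h. The test was limma with treatment as a covariate, two-sided, with p-values adjusted by the Benjamini-Hochberg method and a threshold of 0.05. With a log2 change of at least 1 as well, 2705 were higher (18.4%) and 2395 lower (16.3%). For 7287 probe sets (49.6%) the arrays of 24 h and 4 h did not overlap. The median change was 0.08. Without the quantile step, 87.2% of the calls were higher at 24 h, and with arrays centred on their medians 76.3% were, against 53.7% here, because these scalings moved the median change to 2.24 and 1.22. Directions below are thus relative to the other genes on the array. Of the probe sets called lower, 993 were near the floor at 24 h, and of those called higher, 1078 were near the floor at 4 h, where a log2 change understates the difference and values have no order.

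Among genes measured above the floor at both times, the most precise of the 12 largest rises was that of AT3G56290, which the annotation names by locus only. It stood at 8.16 and 8.54 in DEX and 8.51 and 8.29 in Mock seedlings at 24 h, against 3.61 to 4.38 (median 3.69) at 4 h. The groups were more than 3 log2 units apart. The change was 4.58 ± 0.17 (SE, adjusted p = 2.35e-07), a fold of 23.9. *CCS*, which encodes the chaperone that delivers copper to superoxide dismutase, was at 10.13 and 10.10 (DEX) and 10.07 and 9.93 (Mock) at 24 h and at 5.39 to 6.59 (median 5.96) at 4 h. Every 24 h array was above every 4 h array, and *CCS* rose by 4.07 ± 0.24 (adjusted p = 2.19e-06). The 12 rises were taken from genes that passed the test without overlap between the times. The separation of AT3G56290 and *CCS* thus follows from the choice.

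In some of the largest rises the replicate 1 arrays of 4 h stood between the other 4 h arrays and those of 24 h. *UGT76B1*, whose product glucosylates isoleucic acid and salicylic acid, was at 8.56 and 8.32 (DEX) and 8.58 and 8.70 (Mock) at 24 h. At 4 h it was at 5.10 and 6.44 on the DEX and Mock replicate 1 arrays, while the other 4 arrays were at 2.50 to 2.58. The change was 4.92 ± 0.82 (adjusted p = 0.000863) with all arrays and 6.27 without those 2. AT4G26290 had the same layout, with 8.10 to 8.96 at 24 h and, at 4 h, 6.53 and 5.26 on the replicate 1 arrays beside 2.28 to 2.33 on the rest, and its change of 5.08 ± 0.91 became 6.52 without them.

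Genes near the floor at 4 h and well above it at 24 h included AT1G36310, with 6.80 to 6.89 at 24 h and 2.28 to 2.36 at 4 h, and AT2G29180, with 7.92 to 7.95 at 24 h and 2.42 to 3.49 at 4 h. Their changes, 4.52 ± 0.09 and 5.25 ± 0.20, had adjusted p-values of 3.9e-08 and 3.18e-07. The opposite layout was that of AT2G18370, with 2.23 to 2.74 at 24 h and 7.94 to 8.86 at 4 h, a change of -5.96 ± 0.18 (adjusted p = 1.41e-07). In both layouts the 2 sets of arrays were separated by more than 3 log2 units. These genes were chosen for lying near the floor at 4 h or at 24 h, so their separation follows in part from the choice. AT1G36310 was below the filter on the arrays of 4 h, so that its presence among the tested genes already required high values at 24 h. Over all probe sets, 540 passed the filter on arrays of 24 h alone, and 536 of those were called higher. On arrays of 4 h alone 1016 passed, and 839 of those were called lower.

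The clock itself could be followed in few genes. The platform annotation named a probe set for 3 of the 39 clock and photoperiod genes looked for. Of the 3, 1 passed the test, beside 57.3% of all probe sets. *GI* (*GIGANTEA*), a clock gene with a peak towards evening that promotes flowering in long days, was at 2.32 and 2.33 (DEX) and 2.57 and 2.33 (Mock) at 24 h. At 4 h it was at 4.72 to 6.15 (median 5.39). *GI*, which passed the filter on arrays of 4 h alone, was thus near the floor on all arrays of 24 h and at least 2 log2 units higher on each array of 4 h, a change of -3.12 ± 0.27 (adjusted p = 1.88e-05). *RVE6*, a MYB-like clock factor, differed by 0.07 ± 0.49 (adjusted p = 0.905). *TIC* (*TIME FOR COFFEE*) differed by -0.01 ± 0.32 (adjusted p = 0.986). In both, the 24 h values lay inside the range of 4 h. CCA1, LHY, TOC1 and the PRR genes had no named probe set and were not analysed here.

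*HYH*, the bZIP partner of HY5 in seedling greening, moved the other way. Its levels were 7.59 and 8.07 (DEX) and 7.87 and 7.48 (Mock) at 24 h and 4.03 to 5.75 (median 4.21) at 4 h. The groups did not overlap, and *HYH* rose by 3.13 ± 0.39 (adjusted p = 0.000158). It was the only member of the 22 light signalling genes with a named probe set.

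The 3 genes for the minor antenna protein CP29 of photosystem II did not move together. *LHCB4.2* was at 7.50 and 7.54 (DEX) and 7.57 and 7.73 (Mock) at 24 h, against 11.35 to 12.36 (median 12.22) at 4 h. That was a change of -4.48 ± 0.20 (adjusted p = 5.63e-07), one of the largest falls among the genes above the floor. *LHCB4.3* was at 8.02 to 8.22 at 24 h and at 3.29 to 6.31 (median 5.20) at 4 h and rose by 2.94 ± 0.50 (adjusted p = 0.00102). *LHCB4.1* was at 11.84 to 12.18 at 24 h and 12.65 to 12.93 at 4 h, with a change of -0.77 ± 0.12 (adjusted p = 0.000531). No array of 24 h overlapped any of 4 h for any of these genes.

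Of the 8 nuclear genes for light-harvesting and photosystem proteins tested, 1 rose and 4 fell, beside 30.8% and 26.5% of all probe sets. Their median change was -0.22, beside 0.08 over all probe sets. *PSAN* and *PSAE1*, for small subunits of photosystem I, fell by 0.47 and 0.39, and *PSAE1* lost its call when any of 5 arrays was left out (highest adjusted p = 0.123, without DEX replicate 1 of 24 h). *PSBW*, *PSBY* and *ATPC1*, for photosystem II and ATP synthase subunits, had changes of 0.20, -0.05 and 0.25 and did not pass (that of *ATPC1* was -0.52 relative to the median change on the deposited scale). Carbon fixation genes split as well. *RCA*, for Rubisco activase, was at 12.81 to 12.96 at 24 h and 11.63 to 12.04 at 4 h and rose 2.13-fold (1.09 ± 0.12, adjusted p = 6.74e-05). *PRK*, for phosphoribulokinase, fell by 0.61 (adjusted p = 0.00258). *SBPASE* rose by 0.45 (adjusted p = 0.0243), a call that was lost without any of 3 arrays (highest adjusted p = 0.1, without DEX replicate 1 of 24 h).

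In chlorophyll synthesis, 1 of 5 genes tested rose and 2 fell (20% and 40%), beside 30.8% and 26.5% of all probe sets. *PORB*, for the light-dependent protochlorophyllide reductase, was at 8.88 to 9.12 at 24 h and at 10.25 to 11.07 at 4 h, with a change of -1.65 ± 0.16 (adjusted p = 4e-05). *CHLP*, for geranylgeranyl reductase, fell by 0.95, and *CHLM*, for the magnesium-protoporphyrin methyltransferase, rose by 0.71 (adjusted p = 0.00512 and 0.000749). Of 3 starch genes tested, *DPE1*, for the enzyme that rearranges maltotriose in starch breakdown, fell by 0.97 (adjusted p = 0.000653). *PWD*, for a starch kinase, fell by 0.46 (adjusted p = 0.0184), but lost its call without any of 3 arrays (highest adjusted p = 0.088, without Mock replicate 2 of 24 h) and was at 0.021 relative to the median change on the deposited scale.

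**Figure D2:**
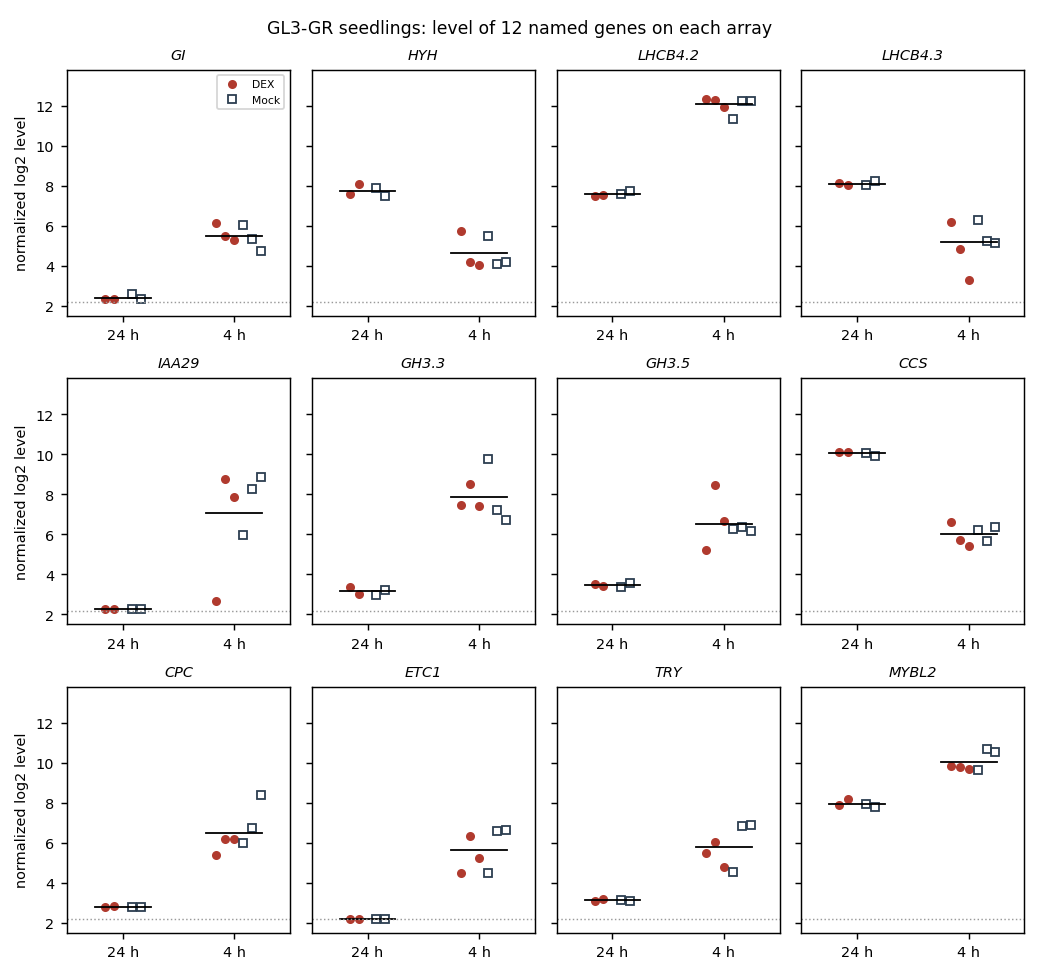
Normalized log2 levels (y axis) of selected genes on each GL3-GR array, with the 4 arrays of 24 h left of the 6 of 4 h and DEX and Mock marked apart. *GI*, *LHCB4.2*, *CPC* and *GH3.3* lie lower on all arrays of 24 h, and *HYH* and *CCS* higher, with no overlap between the times.

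Of 4 auxin-responsive genes tested, 3 fell and 1 did not pass, beside 26.5% of all probe sets that fell. *GH3.3*, for an enzyme that joins auxin to amino acids, was at 3.37 and 3.03 (DEX) and 2.95 and 3.22 (Mock) at 24 h and at 6.71 to 9.74 (median 7.43) at 4 h. Its change was -4.70 ± 0.54 (adjusted p = 9.44e-05), with every array of 24 h more than 3 units below every array of 4 h. The 24 h values of *GH3.3* lay in or just above the range called near the floor. *GH3.5*, a relative that also accepts salicylic acid, was at 3.34 to 3.58 at 24 h and 5.22 to 8.46 (median 6.32) at 4 h and fell by 3.06 (adjusted p = 0.000818). *IAA29*, for an Aux/IAA repressor, was at the floor of 2.24 on all 4 arrays of 24 h. At 4 h *IAA29* reached 5.95 to 8.86 on 5 arrays but only 2.65 on DEX replicate 1, and its change was -4.81 ± 1.12 (adjusted p = 0.00538), or -6.42 without the replicate 1 arrays. It passed the filter on arrays of 4 h alone. *HAT2*, a homeodomain gene induced by auxin, had a change of -0.61 ± 0.29 that did not pass (adjusted p = 0.0934). With only the DEX arrays, 1 of the 4 passed, and with only the Mock arrays, 3 did.

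The genes that hold trichome number down stand in the pattern formation group of the study's own list of trichome genes. Of the 6 pattern formation genes tested, 0 rose and 4 fell, beside 30.8% and 26.5% of all probe sets, with a median change of -2.36 beside 0.08. *CPC* was at 2.81 and 2.86 (DEX) and 2.77 and 2.80 (Mock) at 24 h, against 5.38 to 8.38 (median 6.20) at 4 h. *ETC1* was at the floor of 2.21 on all arrays of 24 h and at 4.49 to 6.63 (median 5.78) at 4 h. It passed the filter on arrays of 4 h alone, so that its presence among the tested genes already required high values at 4 h. *TRY* was at 3.08 to 3.17 at 24 h and at 4.52 to 6.90 (median 5.77) at 4 h. All 3 were near the floor at 24 h in DEX and Mock seedlings alike and were detected on every array of 4 h. The changes were -3.66 ± 0.45 for *CPC*, -3.42 ± 0.48 for *ETC1* and -2.64 ± 0.48 for *TRY* (adjusted p = 0.000145, 0.000306 and 0.00134). *MYBL2*, a MYB gene that restrains anthocyanin synthesis and trichomes, stayed well above the floor, at 7.81 to 8.20 at 24 h and 9.66 to 10.70 (median 9.81) at 4 h, and fell by 2.08 (adjusted p = 7.52e-05). *TTG1*, for the WD40 protein of the activator complex, and *GEM* had changes of 0.18 and 0.20 that did not pass (adjusted p = 0.445 and 0.528).

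Among the initiation genes, 1 of 4 tested fell, beside 26.5% of all probe sets. This was the gibberellin signalling repressor gene *SPY*, with a fall of 1.78 ± 0.26 (adjusted p = 0.000425). *SPY* also stands in the gibberellin list, where *SLY1* and the receptor gene *GID1A* rose by 0.72 and 0.46 and 3 others did not pass. The call of *GID1A* was lost without either of 2 arrays (highest adjusted p = 0.0515, without Mock replicate 2 of 24 h). *GL1*, *EGL3*, *MYB23*, *GL2*, *TTG2* and *GIS* were below the filter, and *GL3* had no named probe set. Of 4 direct targets tested, 2 rose and 1 fell, beside 30.8% and 26.5% of all probe sets. AT1G77670 and AT4G20960 rose by 1.47 and 0.90 and *SCL8* fell by 1.43 (adjusted p = 0.000544, 0.00282 and 0.0251). *SCL8* lost its call without any of 3 arrays (highest adjusted p = 0.0684, without DEX replicate 2 of 24 h).

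Of 21 endoreduplication genes tested, 4 rose (19%, beside 30.8% of all probe sets) and 8 fell (38.1%, beside 26.5%). *CDKA;1*, for the main cell cycle kinase, was at 7.37 and 7.13 (DEX) and 7.02 and 7.28 (Mock) at 24 h and at 3.76 to 5.13 (median 4.14) at 4 h. It rose by 2.96 ± 0.26 (adjusted p = 1.9e-05). *RBR1*, for the retinoblastoma protein, was at 5.64 to 5.68 at 24 h and 6.82 to 7.69 at 4 h and fell by 1.49 (adjusted p = 8.98e-05). The chromatin assembly gene *FAS2* and the ubiquitin ligase gene *KAK* fell by 1.26 and 1.02. *SIM*, which blocks the cyclin-dependent kinases in trichomes, had a change of -0.51 ± 0.42 (adjusted p = 0.314).

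Of 17 morphology genes tested, 4 rose and 6 fell (23.5% and 35.3%), shares near those of all probe sets (30.8% and 26.5%). Subunits of 1 complex moved in both directions. In the SCAR/WAVE complex, which activates actin branching, *DIS3* was at 3.45 to 3.69 at 24 h and 5.53 to 6.58 at 4 h and fell by 2.55 (adjusted p = 2.51e-05). *NAP1* fell by 1.45 and *BRK1* rose by 1.19 (adjusted p = 0.000815 and 0.00014). *KINESIN-13A* fell by 1.23 and the kinesin gene *ZWI* by 0.63, while *SPK1*, for an activator of small GTPases, rose by 1.18 (-0.39 relative to the median change on the deposited scale). The myosin gene *XIK*, of the remaining trichome genes, was at 4.61 to 4.83 at 24 h and at 6.51 to 8.92 at 4 h, with a change of -2.96 ± 0.41 (adjusted p = 0.000285).

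Transcripts of the plastid genome were mostly lower at 24 h. Of 69 plastid genes, all above the filter, 2 rose and 46 fell (66.7%, beside 26.5% lower over all probe sets), with a median change of -1.17 beside 0.12 for the 7830 nuclear protein-coding probe sets tested, of which 2520 rose and 1985 fell. The 24 h mean was the lower for 61 of the 69, and 39 did not overlap between the times, 56.5% beside 49.6% of all probe sets. Under loess, deposited or median-centred scaling, with treatments taken apart or without the replicate 1 arrays of 4 h, 1 or 2 rose and 23 to 58 fell. For these counts, the deposited and median-centred values were first set relative to their median changes of 2.24 and 1.22. All the counts thus describe falls relative to the other genes on the array. Since the plastid transcripts share 1 genome, compartment and, in part, long joint transcripts, these genes are not independent of each other.

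Of the plastid genes for the plastid's own RNA polymerase, 4 of 4 were lower, and their median change of -2.38 was the lowest of the roles. *rpoB* was at 3.39 and 3.33 (DEX) and 3.33 and 3.34 (Mock) at 24 h and at 6.91 to 9.59 (median 8.32) at 4 h. That was a change of -5.07 ± 0.50 (adjusted p = 3.81e-05). *rpoC1* was at 7.28 to 8.16 at 24 h and 9.71 to 11.46 at 4 h and fell by 2.92 (adjusted p = 0.000185). Next were the genes for the cytochrome b6f complex, with 5 of 6 lower and a median of -2.07. *petN* was at 5.91 and 7.01 (DEX) and 5.61 and 6.55 (Mock) at 24 h, against 9.26 to 11.39 (median 10.62) at 4 h, and fell by 4.25 (adjusted p = 6.13e-05).

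Genes for the NADH dehydrogenase-like complex were lower in 6 of 10 cases (median -1.37), with *ndhH* and *ndhJ* falling by 3.94 and 3.85. Genes for ATP synthase were lower in 5 of 6 (median -1.18). Those for the small and large ribosomal subunits were lower in 6 of 8 and 5 of 7 (medians -0.96 and -0.94). Of the rest, *rbcL*, for the large subunit of Rubisco, was at 8.58 and 8.38 (DEX) and 8.51 and 8.76 (Mock) at 24 h and at 10.64 to 11.77 (median 11.36) at 4 h. It fell by 2.74 ± 0.22 (adjusted p = 1.16e-05), whereas the nuclear gene for its activase rose, as given above.

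The photosystem genes of the plastid went both ways. Of 15 for photosystem II, 2 rose and 6 fell (median -0.25), and of 5 for photosystem I, 2 fell (median -0.59). *psbM*, for a small subunit of photosystem II, was at 13.00 and 13.21 (DEX) and 13.26 and 13.29 (Mock) at 24 h and at 10.05 to 11.04 at 4 h. Each 24 h array was about 2 units above the highest 4 h array, and the change was 2.61 ± 0.20 (adjusted p = 9.46e-06). *psbD*, for the D2 reaction centre protein, rose by 0.81 (adjusted p = 0.0042). *psbA*, for D1, had a change of 0.39 ± 0.21 that did not pass (adjusted p = 0.133). *psaA* and *psaB*, for the core of photosystem I, had changes of 0.01 and -0.09 that did not pass, while *psaC* fell by 2.17 (adjusted p = 0.000843).

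**Figure D3:**
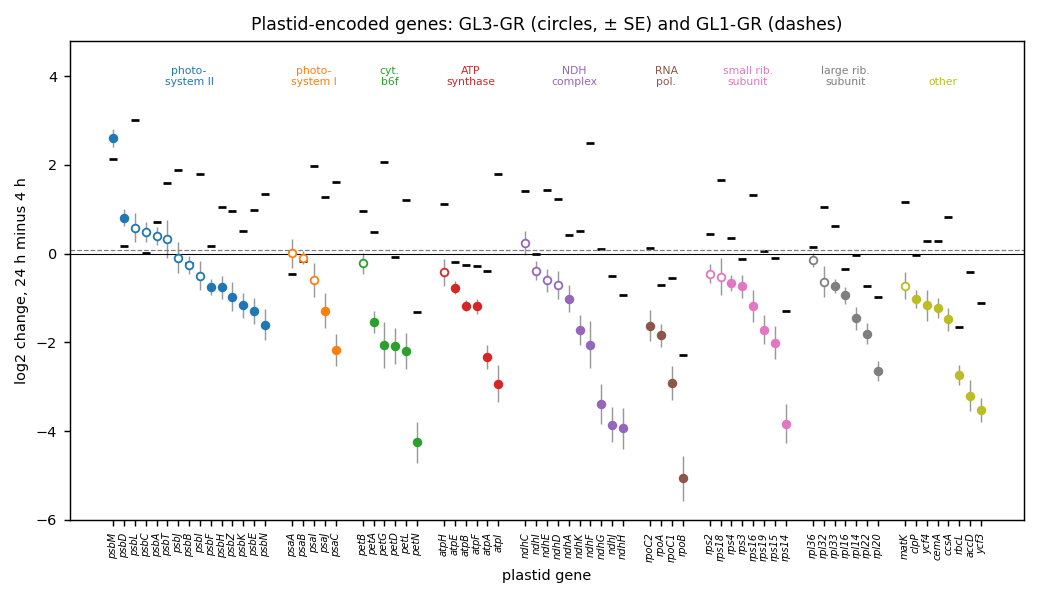
Change of each plastid gene between 24 h and 4 h (y axis, log2 of 24 h minus 4 h) in GL3-GR seedlings, as circles with SE bars coloured by role (filled where the test was passed), with the GL1-GR change as black dashes and the median of all probe sets as the dashed line. Of 69 circles, 46 mark a fall, 2 a rise (*psbM* and *psbD*), and most dashes lie above their circle.

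Of 8 mitochondrial genes tested, 4 rose and 1 fell, beside 30.8% and 26.5% of all probe sets, with a median change of 0.46. Of the 8, 1 passed the filter on arrays of 24 h alone and was called higher. The difference between plastid and mitochondrial genes was not tested. *nad5* was at 7.88 to 8.73 at 24 h and 5.79 to 6.96 at 4 h and rose by 2.07 (adjusted p = 0.000235). *cox2* rose by 1.91, while *nad4* fell by 1.76 (adjusted p = 0.000499).

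Probe sets for pseudogenes, many of which are remnants of mobile elements, were mostly below the filter. Of 998 such probe sets, 866 were not tested for this reason. Of the 132 above it, 13 were higher and 89 lower, with a median change of -1.68. These counts describe the tested probe sets and support nothing, because 79 of the 132 passed the filter on arrays of 4 h alone, and 72 of those were called lower. AT5G35880 was at 4.78 and 5.21 (DEX) and 5.10 and 5.10 (Mock) at 24 h and at 10.16 to 12.26 (median 11.72) at 4 h, a change of -6.28 ± 0.44 (adjusted p = 5.36e-06). AT1G33000 was at the floor of 2.24 on all arrays of 24 h and at 6.31 to 8.13 at 4 h.

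A large share of these probe sets can bind more than 1 transcript. Of the 132, 35 carried the suffix that marks probes shared with other sequences (_x_at), and of these 33 were lower and 1 higher, with a median change of -3.74. Of the other 97, 56 were lower and 12 higher, with a median of -1.16. Over the whole array, 50 probe sets of the shared kind were tested, of which 40 were lower and 4 higher, beside 26.5% and 30.8% of all probe sets. Of the 50, 36 passed the filter on arrays of 4 h alone, and 35 of those were called lower. These counts too describe the tested probe sets and support nothing. The values of such probe sets cannot be given to 1 gene.

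**Figure D4:**
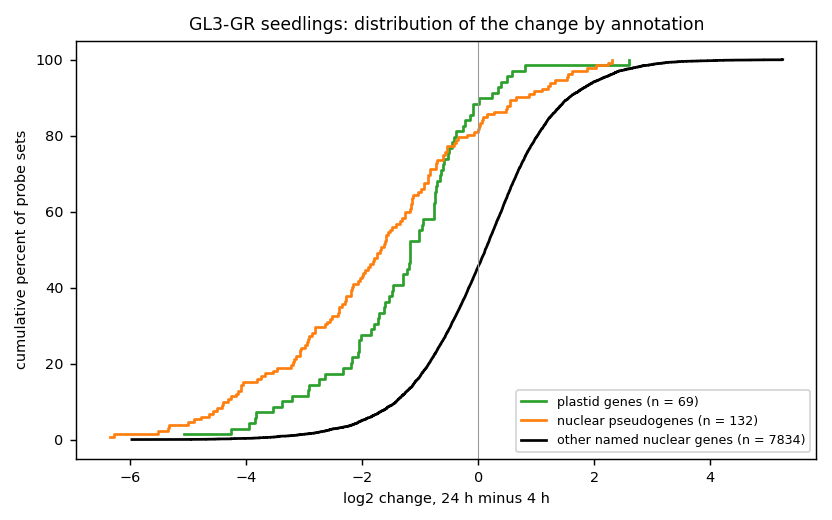
Cumulative percent of probe sets (y axis) against the change between 24 h and 4 h (x axis, log2 of 24 h minus 4 h) for plastid genes (n = 69), nuclear pseudogenes (n = 132) and the other named nuclear genes (n = 7834), with 1 probe set per gene. The curves of the plastid genes and pseudogenes, with medians of -1.17 and -1.68, lie left of the third curve.

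Gene families with at least 7 tested members were chosen after the values had been seen. The largest was that of the UDP-glycosyltransferases (UGT), enzymes that put sugars on hormones, flavonoids and foreign compounds. Of 31 tested, 13 rose (41.9%), each by at least 1 log2 unit, and 8 fell (25.8%), with a median change of 0.30. Over all probe sets 30.8% rose, 18.4% by at least 1 log2 unit, and 26.5% fell. Of the 31, 4 passed the filter on arrays of 4 h alone (3 called lower) and 1 on arrays of 24 h alone (called higher). The upper end held *UGT76B1* (above) and *UGT73B4*. *UGT73B4* was at 8.68 to 8.91 at 24 h and at 2.75 to 7.66 (median 4.21) at 4 h, and rose by 4.17 ± 1.00 (adjusted p = 0.00618). *UGT73B5* and *UGT73B1*, of the same subfamily, rose by 2.22 and 2.61 (adjusted p = 0.0159 and 0.0116), although the 24 h and 4 h arrays overlapped for *UGT73B1*. Related genes can share probes, so that subfamily members are not independent measurements.

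*UGT71B1* was at 6.63 and 7.13 (DEX) and 7.15 and 6.56 (Mock) at 24 h and at 3.20 to 5.15 (median 4.00) at 4 h and rose by 2.74 ± 0.35 (adjusted p = 0.000181). *UGT78D2*, for the flavonoid 3-O-glucosyltransferase, rose by 1.28, whereas *UGT78D1*, for the flavonol rhamnosyltransferase, fell by 0.86 (adjusted p = 0.012 and 0.028). The call of *UGT78D1* was lost without any of 6 arrays (highest adjusted p = 0.0907, without Mock replicate 2 of 24 h). At the lower end were *UGT71C5*, whose product acts on abscisic acid, with 6.19 to 6.52 at 24 h and 7.43 to 9.10 at 4 h, and *UGT85A4*, with 3.56 to 3.64 at 24 h and 5.16 to 6.31 at 4 h. They fell by 1.75 and 2.14 (adjusted p = 0.000978 and 2.79e-05). *UGT74B1*, of glucosinolate synthesis, fell by 1.12 (adjusted p = 0.00635).

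**Figure D5:**
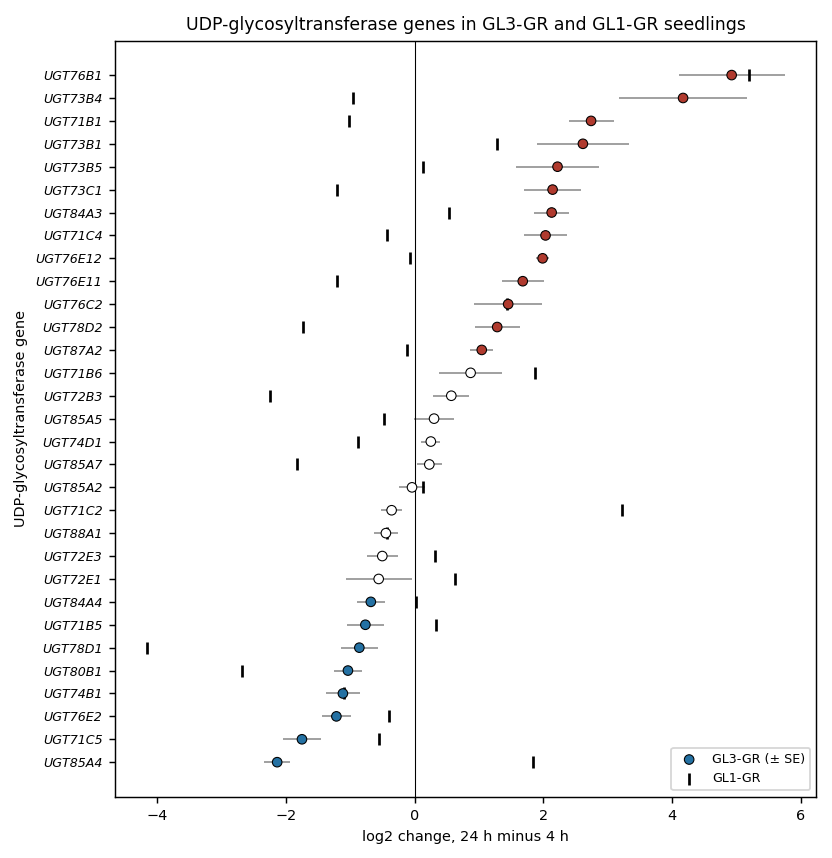
Change of 31 UDP-glycosyltransferase genes (rows) between 24 h and 4 h (x axis, log2 of 24 h minus 4 h) in GL3-GR seedlings, with SE bars, beside the change in GL1-GR seedlings. The range in GL3-GR runs between -2.14 for *UGT85A4* and 4.92 for *UGT76B1*.

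Other families were smaller and mixed, beside 30.8% of all probe sets that rose and 26.5% that fell. Among the SWEET sugar transporters, 2 of 9 tested rose and 3 fell (22.2% and 33.3%), shares near those of all probe sets. Of the 9, 3 passed the filter on arrays of 4 h alone, and 2 of those were called lower. *SWEET2*, which carries glucose into the vacuole, was at 7.23 to 8.32 at 24 h and at 3.61 to 7.22 (median 4.52) at 4 h and rose by 2.84 (adjusted p = 0.00374). *SWEET17*, a vacuolar fructose carrier, was at 5.75 to 5.87 at 24 h and at a median of 7.80 and a highest value of 8.19 at 4 h, with no overlap, and fell by 1.94 (adjusted p = 8.61e-05). The exocyst genes *SEC5A*, *SEC6* and *SEC10*, whose products tether vesicles to the plasma membrane, fell by 1.37, 0.90 and 1.72, and *SEC15A* and *SEC15B* did not pass, with changes of 0.43 (-2.18 relative to the median change on the deposited scale) and -0.31. Of 9 bZIP genes, 4 rose and 1 fell (44.4% and 11.1%), and 1 of the 4 passed the filter on arrays of 24 h alone. *BZIP17*, a stress factor of the endoplasmic reticulum, rose by 1.68 and the zinc-deficiency factor gene *bZIP19* by 1.12 (adjusted p = 3.81e-05 and 0.000189).

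Genes for low oxygen and ethanol use were looked at because Mock and DEX media both held ethanol. Of 5 tested, 3 fell, beside 26.5% of all probe sets, and 1 of the 3, AT5G10040, passed the filter on arrays of 4 h alone. AT5G10040, which is induced by hypoxia, was at the floor of 2.23 on the arrays of 24 h and at 3.88 to 6.21 (median 5.74) at 4 h, with a change of -3.32 ± 0.39 (adjusted p = 0.000105). *PDC2*, for pyruvate decarboxylase, was at 9.22 to 9.38 at 24 h and at 9.51 to 10.98 at 4 h and fell by 1.06 (adjusted p = 0.00649). AT3G27220 fell by 0.86 (adjusted p = 0.011), and lost its call without Mock replicate 1 of 24 h (adjusted p = 0.051). Of 3 cell wall loosening genes tested, *XTH18* and *EXPA8* fell by 1.62 and 1.43 (adjusted p = 0.0108 and 0.00114), and *XTH16* had a change of 0.21 ± 0.39 (adjusted p = 0.664). Of these 3, 1 passed the filter on arrays of 4 h alone and was called lower.

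In the flavonoid and anthocyanin list, 3 of 6 genes tested rose and 3 fell, beside 30.8% and 26.5% of all probe sets. Of those that fell, 1 passed the filter on arrays of 4 h alone, and of those that rose, 1 on arrays of 24 h alone. The anthocyanin glucosyltransferase gene *UGT75C1* was at 2.80 to 2.81 at 24 h and at 2.75 to 6.33 at 4 h, and *UF3GT* at 2.56 at 24 h and 2.80 to 6.71 at 4 h. They fell by 1.60 and 1.82 (adjusted p = 0.0349 and 0.0499), and lost the call without any of 7 and 8 arrays (highest adjusted p = 0.0937 and 0.123, both without DEX replicate 2 of 24 h). *UGT89C1*, for a flavonol rhamnosyltransferase, was at 4.07 to 4.19 at 24 h and at a median of 2.49 at 4 h, with no overlap, and rose by 1.55, with a turn of sign relative to the median change on the deposited scale (-0.25).

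Cold response genes passed or failed with the replicate 1 arrays of 4 h. With all arrays, 0 of 4 tested passed the limma test, beside 57.3% of all probe sets, and 0 had an unadjusted p under 0.05. *COR15A*, for a chloroplast protein that protects membranes in the cold, was at 6.09 and 6.26 (DEX) and 6.15 and 6.91 (Mock) at 24 h. At 4 h it was at 9.23 and 8.23 on the DEX and Mock replicate 1 arrays and at 2.26 to 2.62 on the other 4. *LTI30*, for a dehydrin, had 10.53 and 10.37 on those 2 arrays and 4.89 to 5.92 on the rest, beside 6.18 to 6.71 at 24 h. Both 4 h replicate 1 arrays were thus above all arrays of 24 h and the other 4 h arrays below them. Without the 2 arrays, the changes were 4.11 for *COR15A*, 3.03 for *COR15B*, 0.88 for *COR47* and 1.03 for *LTI30*, and all 4 passed (adjusted p = 3.22e-06, 0.000694, 0.00246 and 0.00544).

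The early touch and wound genes *CML37*, *CML38*, *STZ* and *WRKY53* gave 0 calls of 4, also at an unadjusted p under 0.05, beside calls for 57.3% of all probe sets. *CML37*, for a calmodulin-like protein, was at 4.24 to 5.49 at 24 h and at 2.51 to 10.58 (median 5.31) at 4 h, with Mock replicate 1 of 4 h the highest. Its change was -0.87 ± 1.46 (adjusted p = 0.631). Without the replicate 1 arrays of 4 h, *CML38* and *STZ* passed, with changes of 1.38 and 0.90. The salicylate-linked genes *GRX480* and *SAG101* differed by -0.58 and -0.24 (adjusted p = 0.537 and 0.357).

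Tissue markers were checked as far as probe sets were named. Of 8 green leaf markers, 1 (*RCA*) had a named probe set (12.81 to 12.96 at 24 h, 11.63 to 12.04 at 4 h). Of 14 root markers, 2 had a named probe set. The filter removed 1 of them as too low, and 1 was tested. This was *PYK10*, for a root-abundant beta-glucosidase, at 10.36 to 10.59 at 24 h and at 9.99 to 10.84 at 4 h (change -0.02 ± 0.18, adjusted p = 0.929). It was thus far above the floor at both times in samples labelled as green tissue. The guard cell factor gene *FMA* was at 6.09 to 6.43 at 24 h and 3.91 to 6.20 at 4 h, with overlap, and rose by 1.45 (adjusted p = 0.00594). Of 3 stomatal lineage genes tested, 1 (*FMA*) rose, beside 30.8% of all probe sets. The others, *SPCH* and *STOMAGEN*, did not pass, and the median change of the 3 was 0.23. In bulk tissue, fewer cells of a type and less RNA per cell cannot be told apart. Genes often taken as references moved too, with 4 of 7 higher and 2 lower, beside 30.8% and 26.5% of all probe sets. Among them were *TIP41* (0.74 ± 0.14) and *UBC21* (-1.25 ± 0.25, adjusted p = 0.00218).

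Whether the time difference depended on DEX was tested as an interaction on the same 10 arrays. By limma, 0 of 14693 probe sets passed (0%), and 255 had an unadjusted p under 0.05. A fit over all 22 arrays gave 5 calls, and leaving out both replicate 1 arrays of 4 h gave 29. With 2 arrays per treatment at 24 h and the spread at 4 h, these counts do not show that DEX and Mock seedlings changed alike.

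The time difference of GL3-GR seedlings was then set against that of GL1-GR seedlings in 1 fit over 22 arrays normalized together. The difference between the lines passed for 10379 of 15716 probe sets (66%), with 5417 above 0 (34.5%) and 4962 below (31.6%), a split that moved to 91% and 40.2% above 0 on the deposited and the median-centred scale. Of the probe sets called in each line, 5120 changed in the same direction and 2305 in opposite directions. Across probe sets, which are not independent, the changes of the lines correlated with r = 0.305 and rho = 0.306. In the deposited values each line and time had its own lowest values, while the sources do not say whether each was normalized apart. Any such step cannot be told apart from line and time in this comparison.

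Several genes of light and auxin changed in both lines. In this fit, *GI* had a change of -4.22 in GL1-GR, and the difference between the lines, GL3-GR minus GL1-GR, was 0.29 ± 0.32 (adjusted p = 0.432). *LHCB4.2* had -3.82 in GL1-GR (difference -0.23 ± 0.20, adjusted p = 0.318), *LHCB4.3* 2.81 (difference 0.18 ± 0.56, adjusted p = 0.792), and *PORB* -1.56 (difference 0.05 ± 0.24, adjusted p = 0.88). *GH3.3* had -3.92 (difference -1.09 ± 0.71, adjusted p = 0.187), *UGT76B1* 5.19 (difference 0.17 ± 1.00, adjusted p = 0.89) and *psbM* 2.12. *DIS3* and *RBR1* had -2.66 and -1.79 in GL1-GR, with differences of -0.13 and 0.29 that did not pass (adjusted p = 0.683 and 0.194). These differences moved with the setting. With cyclic loess, those of *LHCB4.2* (-0.91) and *GH3.3* (-1.89) passed. On the deposited scale, gene values were taken relative to the median line difference of all probe sets tested, which was 2.31. Relative to that median, those of *LHCB4.2* (-1.11) and *RBR1* (0.88) passed, and those of *psbM* and *DIS3* turned to -0.64 and 0.65. Without the replicate 1 arrays of 4 h, those of *GI* (0.62) and *UGT76B1* (1.53) passed.

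Other genes differed between the lines. *HYH* had a change of 0.03 in GL1-GR, a difference of 3.20 ± 0.44 (adjusted p = 8.22e-06). *CCS* had -0.13 in GL1-GR (difference 4.07 ± 0.25, adjusted p = 6.22e-10), and AT3G56290 had -1.52 (difference 6.27 ± 0.23). The trichome inhibitors differed too. *CPC* had a change of 0.98 in GL1-GR, a difference of -5.09 ± 0.48 (adjusted p = 1.07e-07), *ETC1* -0.22 (difference -4.03 ± 0.49) and *TRY* -0.50 (difference -2.44 ± 0.61, adjusted p = 0.0023). *IAA29* and *GH3.5* had changes of -0.13 and 0.62 in GL1-GR, with differences of -5.43 and -3.94 (adjusted p = 0.000701 and 6.24e-06). With the DEX arrays alone, that of *IAA29* did not pass (adjusted p = 0.0813), nor did that of *TRY* with the Mock arrays alone (adjusted p = 0.0703). *UBC21*, a reference gene, changed by 1.17 in GL1-GR, a difference of -2.36 (adjusted p = 3.98e-07).

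Plastid genes also differed. For 58 of 69 the difference between the lines was below 0 and for 1 above 0, beside 31.6% and 34.5% of all probe sets. Median changes of the plastid genes were -0.98 in GL3-GR and 0.29 in GL1-GR, where 32 rose and 12 fell. *atpI*, for an ATP synthase subunit, fell in GL3-GR by 2.93 and changed by 1.79 in GL1-GR (difference -4.54 ± 0.40, adjusted p = 4.8e-08). *rpoB* changed by -2.29 and *rbcL* by -1.64 in GL1-GR. Of the 140 pseudogene probe sets tested here, 107 had a difference below 0 and 12 above. This count too supports nothing, because 79 of the 132 tested on the GL3-GR arrays had passed that filter at 4 h alone. How many of the 140 entered in that way was not counted. Among the UGT genes, 18 of 36 differed above 0 and 9 below, and *UGT85A4* had 1.84 in GL1-GR (difference -4.20). The rRNA levels and the actin gap moved in the same direction in both lines, by different amounts. The level of the 3′ actin probe set did not. Its mean was 12.08 at 24 h and 10.87 at 4 h in GL3-GR, and 12.11 and 12.54 in GL1-GR. The mean of the 5S rRNA probe set was 2.134 at 24 h and 10.79 at 4 h in GL3-GR, and 5.794 and 10.41 in GL1-GR. That of the 25S rRNA probe set was 8.038 and 4.514 in GL3-GR and 7.595 and 6.029 in GL1-GR, and the actin gap was 2.43 and 4.572 in GL3-GR and 2.425 and 2.925 in GL1-GR. Their part in the line differences was not tested.

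The largest differences between the lines included genes that turned in opposite directions. AT1G09500 was at 8.48 to 8.89 at 24 h and 3.87 to 5.77 at 4 h in GL3-GR, a change of 3.68, and changed by -3.44 in GL1-GR (difference 7.13 ± 0.52, adjusted p = 4.67e-09). *scpl31*, for a serine carboxypeptidase-like protein, was at 5.33 to 5.65 at 24 h and 5.92 to 9.46 at 4 h, a change of -2.73, and changed by 4.6 in GL1-GR (difference -7.31 ± 0.59). AT2G18370 changed by 2.22 and *RALFL27*, for a signalling peptide, by 4.25 in GL1-GR, with differences of -8.78 and -7.01. Others rested on a large change in GL1-GR. *TBL26* had a change of 0.31 (adjusted p = 0.215) in GL3-GR, which was -2.37 relative to the median change on the deposited scale, and of -7.43 in GL1-GR. *AKINBETA1*, for a subunit of the energy-sensing SnRK1 kinase, had a change of 0.09 (adjusted p = 0.776) in GL3-GR and of 5.28 in GL1-GR, a difference of -5.19 ± 0.30 (adjusted p = 2.66e-10).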

How the data were processed

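Levels came from Affymetrix ATH1 arrays, a single-colour platform. The values deposited by the authors are on a log2 scale and were made with GCRMA, which removes background estimated from the probes' base content, brings the arrays processed together to a common distribution and merges the probes of a probe set. Its version and the number of separate runs are not given in the sources used here. How the values were centred stays unknown, and each line and time has its own lowest value. The labels state that RNA was amplified with the NuGEN Ovation kit.

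The 64 control probe sets were set aside and 22746 stayed. The 10 arrays (22 for the line comparison) were quantile-normalized. Probe sets above the 40th percentile of their array on at least 4 arrays were tested with limma 3.58.1 in R 4.3.3 (time plus treatment, or 1 mean per group), with Benjamini-Hochberg adjustment. Symbols came from the platform table, with 1 gene for 13513 probe sets, several for 503 and none for 8730, and 53 more from the study's trichome list. Roles and biotypes came from RefSeq. The number of arrays limits the precision.

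The genes named were the 12 largest rises and 12 largest falls past the threshold that did not overlap and lay above the floor, 6 each near the floor, clock genes, up to 4 genes per list and the 5 largest line differences per sign, with further members where a list needed them. Members and lists were chosen with earlier results of these data known. Alternatives covered scaling, filtering, treatments apart, array weights, replicate block and each array left out. The procedure was tested on simulated data.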

Additional observations from a re-analysis of the deposited data

Results flagged for a closer look

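In 100 tests of whether the highest or lowest array of a group stood far from the rest, 10 did, where chance gives about 1 in 20. At 4 h these were AT1G51620 at 7.05 on Mock replicate 1 (2.197 to 2.98 on the others), AT2G23910 at 4.968 on DEX replicate 1 (2.262 to 2.704), AT2G29180 at 3.493 on Mock replicate 2 (2.421 to 2.669) and AT3G56290 at 4.383 on Mock replicate 3 (3.613 to 3.766). At 24 h, *rps14* was at 6.072 on Mock replicate 1 (7.371 to 7.414 on the others), AT4G09040 at 7.414 (7.588 to 7.61) and *GI* at 2.566 (2.315 to 2.326) on the same array. *ndhJ* was at 7.604 (6.686 to 6.827), AT1G33000 at 2.238 (2.24 on the others, all at the floor) and the ubiquitin 3′ minus 5′ gap at 2.196 (1.983 to 2.019) on Mock replicate 2 of 24 h.

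The time change differed between GL3-GR and GL1-GR seedlings for 10379 probe sets. The largest differences above 0 were those of *TBL26* (8.102), AT5G14610 (7.994), AT3G01830 (7.965), AT1G09500 (7.135) and AT1G52000 (6.983). The largest below 0 were those of AT2G18370 (-8.777), *scpl31* (-7.312), AT5G02420 (-7.141), *RALFL27* (-7.008) and AT4G27450 (-6.984). The highest adjusted p of these 10 was 0.000116.

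Control probe sets outside the tests differed between the times in GL3-GR seedlings. The 25S rRNA probe set had a mean of 8.038 at 24 h and 4.514 at 4 h. The 5S rRNA probe set had 2.134 at 24 h and 10.79 at 4 h, and the actin 3′ minus 5′ gap 2.43 at 24 h and 4.572 at 4 h. What part these differences have in the gene results was not tested.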

How the results depend on the processing

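Of 8416 calls, the count moved by over 1.5 times with the deposited values unscaled (13455 calls, 11736 higher and 1719 lower), with median-centred arrays (12831, 9793 higher and 3038 lower), with Mock arrays only (5497) and with DEX arrays only (4903), where fewer arrays enter. It was 6447 to 8957 with each array left out in turn. Relative to the median change, 6362 of the calls kept their direction on the deposited scale and 783 turned. With cyclic loess, 7856 were kept and 5 turned. The interaction gave 0 calls (0 with each array left out), except for 5 over 22 arrays and 29 without both replicate 1 arrays of 4 h, an alternative chosen after seeing the data. The cause was not tested. The line difference of 10379 calls was 9609 to 10859 with each GL3-GR array left out. Of 171 genes with a time difference named or tabulated, 86 kept their direction and side of the threshold under every alternative, as did 23 of 33 line differences. Gene values on the deposited and the median-centred scale were also taken relative to the median change or the median line difference. Signs turned there for *PWD* (0.021), *UGT89C1* (-0.25), AT4G33560 (-1.48), *MCM7* (-1.73), *CYCD3;1* (-1.81) and *ROL1* (0.42). They also turned for *SEC15A* (-2.18), *ATPC1* (-0.52), *SPK1* (-0.39) and *TBL26* (-2.37), and for the line differences of *psbM* (-0.64) and *DIS3* (0.65). Without the replicate 1 arrays, signs turned for *LTI30* (1.03) and *AUR1* (0.64). On percentile ranks (percentile points), the line differences of *LHCB4.2* (8.15) and *psbM* (-2.48) turned. Same-numbered samples deviated from their group means with a correlation of -0.16 at 24 h and of 0.271, 0.247 and 0.0243 at 4 h. At 24 h, 2 arrays per group make both sample numbers give the same value. Deviations about means of so few arrays constrain each other, so these values cannot decide whether the numbers pair the samples. The numbers were not taken to pair the samples, although the replicate 1 arrays of 4 h stood apart from the others in several genes. The replicate block gave 7646 calls, 10296 for the line difference and 0 for the interaction. Differences under the 4 h spread of 0.443 are hard to detect, and values near the floor have no order.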
